A study of Mus musculus with 17 samples.

Results

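The SLAM family receptors are the immune cell surface proteins encoded by Cd84, Slamf6, Slamf1, Slamf7, Slamf8, Slamf9, Cd48, Cd244a and Ly9. These 9 genes were taken by symbol from the 31091 gene identifiers of the count table, with no filter on their values. The list was chosen with earlier results of these data known. The genes were followed over 17 bulk RNA sequencing samples of mouse splenic dendritic cells in 6 groups. The sorted populations were conventional dendritic cells of type 1 (cDC1) and type 2 (cDC2), and each had spent 6 h in culture with conditioned medium from TC-1 tumor cells. The TC-1 cells were wildtype (WT medium), TC-1-iBimS cells dying by apoptosis (BimS medium) or TC-1-iRIPK3 cells dying by necroptosis (RIPK3 medium). The groups cDC1 WT, cDC1 BimS, cDC1 RIPK3, cDC2 WT and cDC2 BimS held 3 samples each and cDC2 RIPK3 held 2.

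Per the study's methods, what all groups shared was as follows. The donors were female C57BL/6JRj mice bought at 8 weeks of age. They were given a B16 melanoma secreting FLT3 ligand, a cytokine that expands dendritic cells. Spleens were taken once tumors had grown and were pooled within an experiment. CD11c+ cells were enriched, given GM-CSF and cultured with the medium, and cDC1s and cDC2s were sorted afterwards. The sort took live cells positive for MHC-II and CD11c, a gate that would remove most T cells, B cells and NK cells, and from these XCR1+ CD8α+ SIRPα- cells as cDC1s and SIRPα+ CD11b+ XCR1- cells as cDC2s. The wildtype TC-1 cells received cumate, the inducer of the transgenes, like the others. The transgenic lines, iBimS and iRIPK3, were cloned by sorting single cells, and the methods do not say how many clones were used. Effects of a clone and of its mode of death cannot be told apart. TC-1 is a C57BL/6 lung epithelial line transformed with HPV16 E6 and E7 and activated H-ras. BimS is a BH3-only protein that triggers mitochondrial apoptosis, and RIPK3 is the kinase that activates MLKL in necroptosis. No group without tumor cell medium was analysed here.

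SLAM family receptors are immunoglobulin superfamily proteins of leukocytes. Most bind a copy of themselves on a neighbouring cell, whereas CD244 binds CD48, which is held in the membrane by a lipid anchor. Slamf1, Cd84, Slamf6, Slamf7, Ly9 and Cd244a carry tyrosine motifs in their tails that recruit the small adaptors SAP and EAT-2 or inhibitory phosphatases, while the short tails of Slamf8 and Slamf9 lack them. In macrophages SLAMF7 together with the integrin Mac-1 has been linked to the uptake of tumor cells, and in dendritic cells the family takes part in contacts with T cells and NK cells.

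The samples held 16095159 to 21645289 counts each (median 18986002). Levels are CPM, the counts of a gene relative to all counts of its sample, scaled by TMM, a normalization that balances most genes between samples. The labels of the populations were checked against markers. The summed level of 9 cDC1 markers such as Clec9a and Irf8 was 1428 to 1746 CPM in cDC1 samples and 99.0 to 132 CPM in cDC2 samples. The sum of 8 cDC2 markers such as Cd209a and Irf4 was 2.66 to 4.16 CPM in cDC1 samples and 283 to 373 CPM in cDC2 samples. Xcr1, Cd8a, Sirpa and Itgam in these lists are also genes of the sort gates. T cells, NK cells, B cells and macrophages carry SLAM receptors too, so their markers were measured. Among NK cell markers Ncr1, Klrb1c, Nkg7 and Prf1 had at most 3 counts in each sample of every group, and nearly all of the list's sum was Klrd1. Of 9 T cell markers 2 to 4 exceeded that limit in at least 1 sample of the cDC1 groups, 8 in cDC2 WT and 4 in each of the other cDC2 groups, with sums of 1.13 to 1.94 CPM in cDC1 and 2.13 to 3.70 CPM in cDC2 samples. Of 9 B cell markers 5 to 6 exceeded it in cDC1 groups, 8 in cDC2 WT and 7 in each of the other cDC2 groups, with sums of 14.4 to 26.1 and 28.4 to 49.6 CPM. Ighm made up most of the B cell sum, and Pax5 was at or under the limit in each group. The macrophage and monocyte list was higher after WT medium in cDC1s, at 11.2 to 15.2 CPM against 6.74 to 7.49 CPM after BimS and 6.24 to 8.24 CPM after RIPK3 medium. In cDC2s it was 33.5 to 48.8, 34.6 to 41.8 and 27.7 to 35.2 CPM in the same order.

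All 9 genes lie on chromosome 1 of GRCm39 within 1.031 Mb, at 171386708 to 172418178. In order of position they are Cd244a (171386708 to 171437315, + strand), Ly9 (171416173 to 171434978, − strand), Slamf7 (171459966 to 171480603, − strand), Cd48 (171509573 to 171532826, + strand), Slamf1 (171594695 to 171628764, + strand), Cd84 (171667263 to 171720036, + strand), Slamf6 (171745057 to 171780737, + strand), Slamf9 (172297192 to 172307889, + strand) and Slamf8 (172409325 to 172418178, − strand). Ly9 lies wholly inside the span of Cd244a on the other strand. The annotated exons of the pair share 0 bases.

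Promoter windows of 300 bases, from 250 bases before to 50 bases after the RefSeq start of each gene, were read for 8 of the 9 genes from a table of build GRCm38.p6. Ly9 had no entry. Those printed below belong to the receptors whose levels the results turn on, which are Slamf7 and Cd48, both lower after dying cell medium in both populations, Slamf8, lower in cDC1s, and Cd244a, higher in both. Each matched chromosome 1 of GRCm39 at 1 place, which is the position given here, and that of Slamf7 lies inside the annotated gene span because its RefSeq start is downstream of the longest annotated transcript. Capitals mark motif matches on either strand. The motifs searched were AP-1 (TGANTCA), the core bound by PU.1 and other ETS factors (GAGGAA), GAS, the STAT element (TTCNNNGAA), and ISRE, the element bound by IRF factors (GAAA, any 2 bases, GAAA).

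Slamf7 (chr1:171476518-171476817, − strand): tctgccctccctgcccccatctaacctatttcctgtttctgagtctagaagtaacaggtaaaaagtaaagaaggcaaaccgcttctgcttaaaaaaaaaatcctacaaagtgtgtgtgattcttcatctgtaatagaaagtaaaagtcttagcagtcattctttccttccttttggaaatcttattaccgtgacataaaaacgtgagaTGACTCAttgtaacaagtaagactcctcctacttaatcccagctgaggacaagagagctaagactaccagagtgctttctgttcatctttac
Cd48 (chr1:171509310-171509609, + strand): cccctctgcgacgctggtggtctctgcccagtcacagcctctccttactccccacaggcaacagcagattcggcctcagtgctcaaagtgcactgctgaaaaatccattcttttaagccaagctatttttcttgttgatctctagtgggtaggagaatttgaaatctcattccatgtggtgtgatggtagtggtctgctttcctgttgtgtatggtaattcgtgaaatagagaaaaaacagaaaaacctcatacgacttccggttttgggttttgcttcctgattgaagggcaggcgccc
Slamf8 (chr1:172418086-172418385, − strand): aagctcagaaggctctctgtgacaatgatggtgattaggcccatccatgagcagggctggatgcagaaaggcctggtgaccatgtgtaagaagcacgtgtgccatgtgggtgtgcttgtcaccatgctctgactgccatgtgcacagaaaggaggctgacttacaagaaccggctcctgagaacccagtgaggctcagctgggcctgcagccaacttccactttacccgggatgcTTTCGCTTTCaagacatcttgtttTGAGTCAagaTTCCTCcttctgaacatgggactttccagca
Cd244a (chr1:171386511-171386810, + strand): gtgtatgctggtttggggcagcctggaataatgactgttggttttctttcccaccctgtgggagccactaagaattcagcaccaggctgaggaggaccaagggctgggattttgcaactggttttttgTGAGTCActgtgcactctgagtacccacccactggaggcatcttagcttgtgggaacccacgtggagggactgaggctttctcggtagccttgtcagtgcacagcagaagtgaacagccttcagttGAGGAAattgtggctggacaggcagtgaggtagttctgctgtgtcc

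AP-1 letters were present in 4 of the 8 windows, those of Slamf7, Slamf8, Cd244a and Cd84, and in 7.81% of 32851 mouse promoter windows of the same length. In Slamf7 the match began 42 bases before the start site and in Cd244a 122 bases before it. The ETS core was in 4 of the 8 windows (Slamf8, Slamf9, Cd244a and Cd84) and in 28.3% of all windows. Slamf8 held the ISRE letters 15 bases before its start, which 3.44% of all windows hold, and its AP-1 match lay 9 bases past the start. GAS letters were in 0 of the 8 windows and in 8.30% of all. The Cd48 window held none of the 4 motifs. A match of letters is a description of the sequence and was not tested as a binding site.

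To set the receptors beside one another, levels were divided by exon length and scaled to the same sum in each sample (TPM). In cDC1s after WT medium Slamf7 was highest at 488 ± 6.85 TPM (SD, n = 3), followed by Cd48 at 119 ± 6.06, Ly9 at 43.0 ± 5.12 and Slamf8 at 29.4 ± 1.41 TPM. Cd244a was at 4.44 ± 0.453, Slamf6 at 1.72 ± 0.330, Cd84 at 1.56 ± 0.150, Slamf9 at 0.436 ± 0.0883 and Slamf1 at 0.0812 ± 0.00506 TPM. Slamf6 and Cd84 overlapped between samples, and the other neighbours in this order did not. In cDC2s after WT medium Slamf7 was again highest at 121 ± 15.7 TPM, with Cd48 at 68.9 ± 3.25 and Ly9 at 24.6 ± 3.61 TPM. Cd244a followed at 5.45 ± 1.05, Slamf8 at 2.43 ± 0.698, Slamf9 at 2.30 ± 0.889, Slamf6 at 1.85 ± 0.252, Cd84 at 0.818 ± 0.136 and Slamf1 at 0.171 ± 0.153 TPM. Slamf8, Slamf9 and Slamf6 could not be ordered in cDC2s because their samples overlapped.

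**Figure D1:**
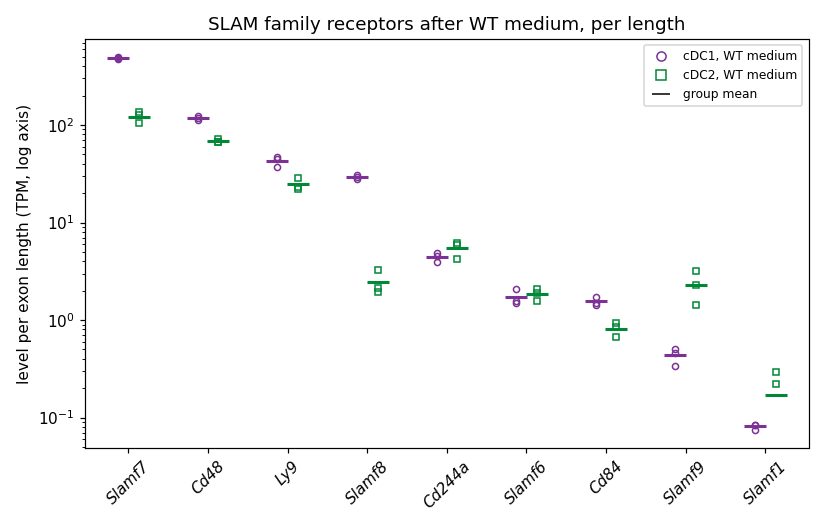
Level per exon length (TPM, log axis) of each receptor in the 3 cDC1 and 3 cDC2 samples after WT medium, with bars at the group means; 1 cDC2 sample with 0 counts of Slamf1 cannot be drawn on a log axis. Slamf7 stands highest in both populations, at 488 and 121 TPM, and Slamf8 and Slamf9 differ most between them, in opposite directions.

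Whether the media of dying cells changed the receptors was asked within each population with edgeR's quasi-likelihood test, with Benjamini-Hochberg adjustment over all genes tested and a call at an adjusted p under 0.05. All 9 genes passed the filter on low counts in each fit. In cDC1s, BimS medium changed 5 of the 9 against WT medium, where 13.2% of 19513 genes were called. Cd244a and Slamf6 rose, and Slamf7, Cd48 and Slamf8 fell. RIPK3 medium changed 4, against 16.5% of all genes, with Cd244a up and Slamf7, Cd48 and Slamf8 down. In cDC2s, BimS medium changed 3, against 7.01% of 19239 genes, with Cd244a up and Slamf7 and Cd48 down. RIPK3 medium changed 4, against 7.21%, with Cd244a and Slamf6 up and Slamf7 and Cd48 down. The median log2 fold change of the 9 in these comparisons was 0.04, -0.19, -0.33 and 0.01 in the order given, and that of all genes was between -0.02 and 0.00. The comparisons with WT medium share their control samples within a population.

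**Figure D2:**
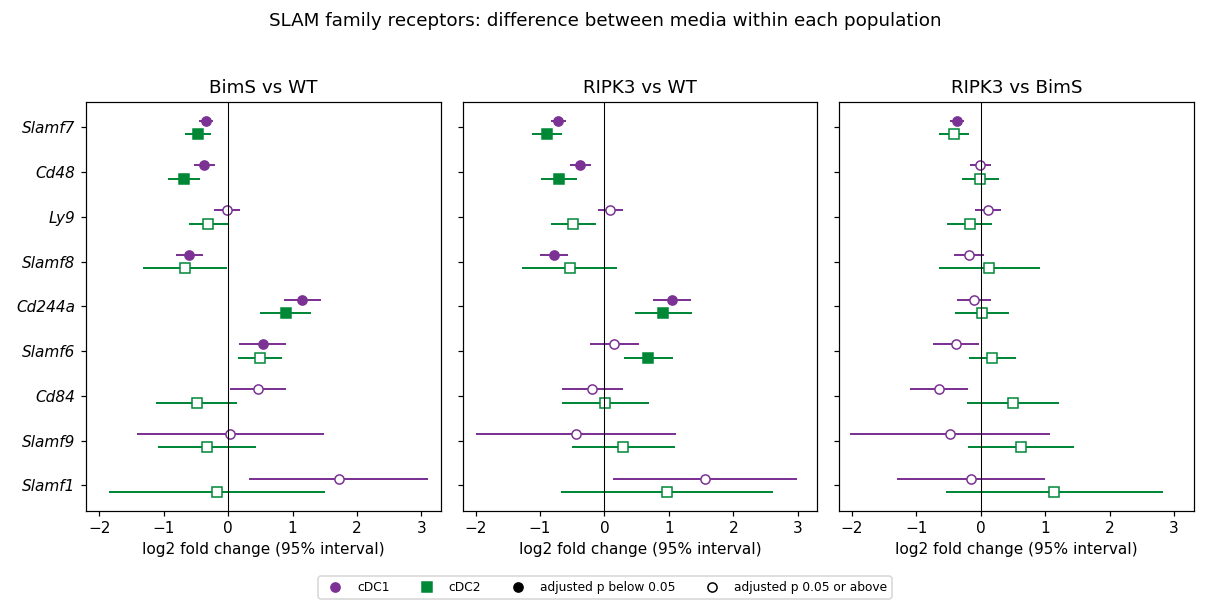
Log2 fold change (x axis) of each receptor between media, as point and 95% interval from the edgeR fit, for cDC1s (circles) and cDC2s (squares); filled symbols passed the adjusted threshold of 0.05. Slamf7 and Cd48 lie below 0 and Cd244a above 0 against WT medium in both populations, and Slamf7 lies below 0 between RIPK3 and BimS medium.

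RIPK3 and BimS medium were compared directly as well. In cDC1s 1 receptor, Slamf7, was called, against 4.15% of all genes. In cDC2s 0 of 9 were called by edgeR, DESeq2 and limma, against 0.379% of all genes, and 1 had an unadjusted p under 0.05 in edgeR. The replicate numbers of the labels paired samples within a population, and a fit with the replicate as a block called more genes. With it, 2 receptors were called between RIPK3 and BimS medium in cDC1s (8.87% of all genes) and 1 in cDC2s (14.3%). Blocked counts against WT medium in cDC2s were 5 for BimS (21.3% of all genes) and 5 for RIPK3 medium (21.4%). Blocked values of the receptors are given below where they change a call.

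**Figure D3:**
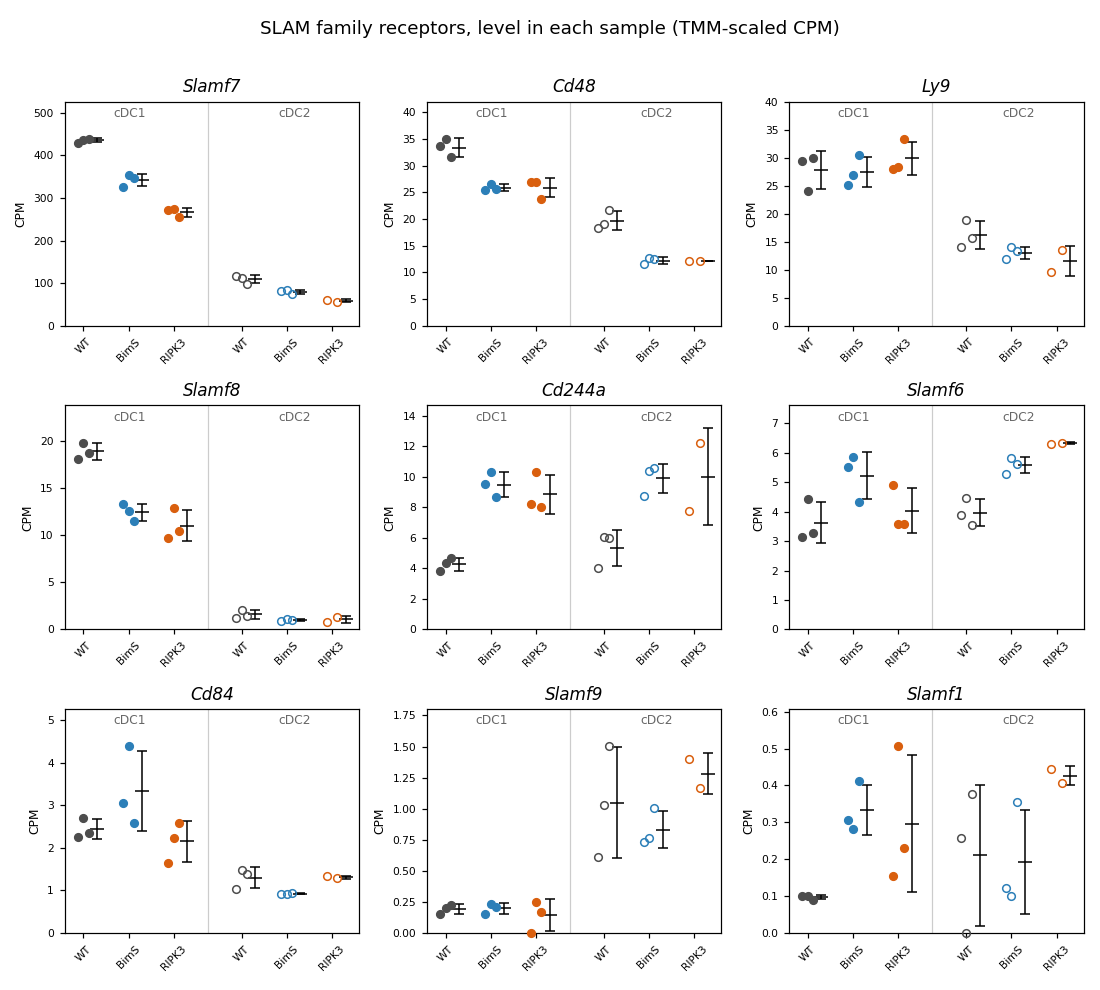
Level (TMM-scaled CPM, axes from 0) of each receptor in each of the 17 samples, with filled points for cDC1 and open points for cDC2 samples, and mean ± SD beside each group. Slamf7 falls from WT to BimS to RIPK3 medium with no overlap of neighbouring groups in either population, while Cd244a is higher after both dying cell media.

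Slamf7, the receptor known as CRACC or CD319, was the most abundant member and fell in steps. In cDC1s its levels were 429, 437 and 438 CPM after WT medium, 327, 353 and 346 CPM after BimS medium and 271, 274 and 254 CPM after RIPK3 medium. In cDC2s they were 118, 113 and 98.3 CPM after WT, 80.8, 84.3 and 73.7 CPM after BimS and 61.7 and 56.9 CPM after RIPK3 medium. The 6 groups formed a strict order in which no neighbours overlapped, from cDC1 WT down to cDC2 RIPK3. In cDC1s BimS medium changed it by -0.35 on the log2 scale (SE 0.046, adjusted p = 5.18e-07), a ratio of 0.787. RIPK3 medium gave -0.71 (SE 0.047, adjusted p = 1.59e-14), a ratio of 0.610, and against BimS medium by -0.37 (SE 0.047, adjusted p = 2.81e-06). In cDC2s the log2 fold changes were -0.46 (SE 0.091, adjusted p = 0.00226) with BimS and -0.89 (SE 0.10, adjusted p = 8.59e-06) with RIPK3 medium, the latter a ratio of 0.541. Between RIPK3 and BimS medium in cDC2s it was -0.42 with a 95% interval of -0.64 to -0.20 (adjusted p = 0.0932), and -0.49 with the replicate block (adjusted p = 3.13e-13). Without cDC2 WT replicate 1 or 3 the unblocked value passed, at adjusted p = 0.0425 and 0.0112. The summed cDC1 marker list was at 1562 to 1746, 1454 to 1604 and 1428 to 1493 CPM in cDC1s after WT, BimS and RIPK3 medium. Its members went different ways. Wdfy4, the largest part of the sum, was at 552 to 651 CPM after WT, 487 to 565 after BimS and 437 to 469 after RIPK3 medium. Itgae was at 41.3 to 48.9, 28.9 to 35.4 and 23.6 to 25.6 CPM and Irf8 at 279 to 335, 177 to 194 and 169 to 184 CPM in the same order, whereas Xcr1 was at 149 to 161, 202 to 214 and 214 to 236 CPM and Clec9a at 231 to 254, 282 to 297 and 279 to 296 CPM. In cDC2s the summed cDC2 markers were at 327 to 373, 315 to 339 and 283 to 320 CPM in the same order. There Irf4 was at 34.9 to 38.9, 14.9 to 19.5 and 12.4 to 13.3 CPM and Clec10a at 19.2 to 25.8, 14.5 to 21.6 and 10.9 to 11.2 CPM, whereas Clec4a4 was at 8.56 to 10.6, 11.3 to 16.8 and 15.0 to 15.6 CPM. The part of these shifts in the Slamf7 result was not tested. These are bulk levels, in which fewer cells that express a gene and less RNA per cell cannot be told apart. The Slamf7 exons share 423 bases with the antisense transcript Gm37787, and the sources used here do not state whether strand was used in counting.

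Cd48, the anchored ligand of CD244, fell with either medium. In cDC1s it was 33.6, 35.0 and 31.5 CPM after WT, 25.4, 26.6 and 25.6 CPM after BimS and 26.9, 26.9 and 23.8 CPM after RIPK3 medium. The WT samples lay above all others, and the BimS and RIPK3 samples overlapped. The log2 fold change was -0.37 for both media (SE 0.072 for each, adjusted p = 0.000243 for BimS and 0.000168 for RIPK3). In cDC2s it was 18.4, 19.1 and 21.6 CPM after WT, 11.6, 12.6 and 12.5 CPM after BimS and 12.1 and 12.2 CPM after RIPK3 medium, again with no overlap between WT and the rest. The log2 fold changes were -0.69 (SE 0.11, adjusted p = 0.000328) and -0.70 (SE 0.13, adjusted p = 0.00102). B cells also carry CD48, and the MHC-II+ CD11c+ gate would remove most of them. The B cell list, mostly Ighm, summed to 20.2 to 26.1, 14.4 to 20.2 and 16.6 to 22.9 CPM in cDC1s after WT, BimS and RIPK3 medium and to 36.7 to 42.7, 28.4 to 35.0 and 48.9 to 49.6 CPM in cDC2s, and its part in the Cd48 result was not tested. The direct comparison of RIPK3 with BimS medium gave -0.0050 on the log2 scale with an interval of -0.15 to 0.14 in cDC1s and -0.0087 with an interval of -0.28 to 0.26 in cDC2s.

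Cd244a, the receptor for CD48 that is also called 2B4, moved the opposite way to its ligand. Its levels in cDC1s were 3.81, 4.32 and 4.65 CPM after WT, 9.49, 10.3 and 8.65 CPM after BimS and 8.23, 10.3 and 8.01 CPM after RIPK3 medium. The lowest sample after dying cell medium was above the highest after WT medium. The log2 fold changes were 1.15 (SE 0.13, adjusted p = 2.56e-08), a 2.22-fold rise, and 1.05 (SE 0.14, adjusted p = 1.94e-07), a 2.07-fold rise. In cDC2s it was 4.00, 6.05 and 5.96 CPM after WT, 8.76, 10.3 and 10.5 CPM after BimS and 7.76 and 12.2 CPM after RIPK3 medium, again without overlap with WT. Its log2 fold changes were 0.89 (SE 0.18, adjusted p = 0.00383) and 0.92 (SE 0.20, adjusted p = 0.00677). Without cDC2 RIPK3 replicate 2, the sample at 12.2 CPM, the RIPK3 value was 0.56 (adjusted p = 0.305). Ncr1 and Klrb1c, defining markers of NK cells, which carry CD244, stayed at or under 3 counts in every sample. The sum of the NK cell list, nearly all Klrd1, was 9.16 to 12.9, 3.96 to 6.33 and 4.65 to 5.22 CPM in cDC1s after WT, BimS and RIPK3 medium, and 88.1 to 109, 65.8 to 73.2 and 62.3 to 66.3 CPM in cDC2s. Among its minor members in cDC2s, Eomes had 2 to 8, 0 to 2 and 0 to 2 counts and Gzma 4 to 10, 4 to 9 and 8 to 14 counts in the same order. The sort gate would remove most NK cells, and their part in the Cd244a result was not tested. RIPK3 and BimS medium gave a log2 difference of -0.10 (interval -0.35 to 0.14) in cDC1s and 0.02 (interval -0.38 to 0.43) in cDC2s.

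Slamf8, a member without the tyrosine switch motif that is known to restrain the phagocyte oxidase in macrophages, was mostly a cDC1 transcript and fell there. It was at 18.1, 19.9 and 18.8 CPM after WT, 13.3, 12.6 and 11.5 CPM after BimS and 9.72, 12.9 and 10.5 CPM after RIPK3 medium. The WT samples were above all 6 others. The log2 fold changes were -0.60 (SE 0.098, adjusted p = 1.62e-05) and -0.78 (SE 0.10, adjusted p = 1.48e-07). Macrophages express Slamf8 as well, and the macrophage and monocyte list fell in the same direction in cDC1s, from a mean sum of 12.6 to 7.11 and 6.97 CPM; its part in the result was not tested. In cDC2s the level was 1.23 to 2.11 CPM after WT, 0.913 to 1.06 CPM after BimS and 0.827 and 1.34 CPM after RIPK3 medium. The cDC2 values were -0.67 (interval -1.31 to -0.03, adjusted p = 0.245) and -0.54 (interval -1.26 to 0.18, adjusted p = 0.460), which did not pass.

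Slamf6, also known as Ly108, was low and its calls were the least stable of the family. In cDC1s it was 3.16, 4.42 and 3.29 CPM after WT, 5.51, 5.84 and 4.32 CPM after BimS and 4.91, 3.60 and 3.57 CPM after RIPK3 medium, so that the WT and BimS groups overlapped by 1 sample each. BimS medium raised it by 0.53 on the log2 scale (SE 0.17, adjusted p = 0.0307), a 1.45-fold rise. This call was lost without cDC1 WT replicate 1 (0.45, adjusted p = 0.154) or 3 (0.47, adjusted p = 0.138), without cDC1 BimS replicate 1 (0.49, adjusted p = 0.0906) or 2 (0.44, adjusted p = 0.157), with DESeq2 (adjusted p = 0.0803) and with limma on log2(count + 1) (0.49, adjusted p = 0.101). After RIPK3 medium the value was 0.15 (interval -0.21 to 0.52, adjusted p = 0.675). In cDC2s the levels were 3.90, 4.45 and 3.54 CPM after WT, 5.29, 5.83 and 5.62 CPM after BimS and 6.30 and 6.35 CPM after RIPK3 medium, 3 groups that did not overlap. RIPK3 medium raised it by 0.68 (SE 0.17, adjusted p = 0.0195), a 1.60-fold rise. With either cDC2 RIPK3 sample left out the value stayed at 0.68 and the adjusted p was 0.119 and 0.133, and with limma on log2(count + 1) it was 0.50 (adjusted p = 0.195). BimS medium gave 0.49 (SE 0.16, adjusted p = 0.0695), and with the replicate block 0.49 (adjusted p = 0.00892). Its exons share 295 bases with the antisense transcript Gm37065.

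Cd84, a receptor that binds itself, was low, at 15 to 93 counts per sample. In cDC1s it was 2.26, 2.7 and 2.35 CPM after WT, 3.06, 4.38 and 2.57 CPM after BimS and 1.64, 2.23 and 2.59 CPM after RIPK3 medium. These groups overlapped, and the value at 4.38 CPM was the highest of all 17 samples. BimS medium gave a log2 fold change of 0.47 (interval 0.05 to 0.88, adjusted p = 0.153) and RIPK3 medium -0.19 (interval -0.64 to 0.27, adjusted p = 0.682). Between RIPK3 and BimS medium it was -0.65 (SE 0.21, adjusted p = 0.0802), and -0.65 with the replicate block (adjusted p = 0.0194). Without cDC1 BimS replicate 3 that difference was -0.80 (adjusted p = 0.0424), and without cDC1 RIPK3 replicate 3 it was -0.80 (adjusted p = 0.0274). In cDC2s Cd84 was 1.03, 1.48 and 1.40 CPM after WT, 0.913, 0.913 and 0.947 CPM after BimS and 1.34 and 1.28 CPM after RIPK3 medium. The BimS samples were below all other cDC2 samples, with a log2 fold change of -0.49 against WT (interval -1.10 to 0.13, adjusted p = 0.421).

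Ly9, the receptor also called SLAMF3 or CD229, kept its level in the cDC1 samples within a narrow range. It was 24.0 to 30.0 CPM after WT, 25.1 to 30.4 CPM after BimS and 28.0 to 33.4 CPM after RIPK3 medium, and the log2 fold changes against WT were -0.02 (interval -0.20 to 0.17) and 0.09 (interval -0.09 to 0.28). In cDC2s it was 14.0, 18.8 and 15.7 CPM after WT, 11.9, 14.0 and 13.3 CPM after BimS and 9.67 and 13.5 CPM after RIPK3 medium, with the WT samples above all others. The cDC2 values were -0.31 (SE 0.14, adjusted p = 0.232) and -0.48 (SE 0.16, adjusted p = 0.0782) without the block, and -0.31 (adjusted p = 0.00556) and -0.49 (adjusted p = 0.000166) with it. Without cDC2 WT replicate 1 the unblocked RIPK3 value was -0.57 (adjusted p = 0.0288).

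Slamf1, the founding member and a receptor known on activated T cells and dendritic cells, was near the limit of detection in both populations. Slamf9 was near it in cDC1s and low in cDC2s. Slamf1 had 2 counts in each cDC1 WT sample, 6, 6 and 8 after BimS and 3, 10 and 4 after RIPK3 medium. In cDC2s it had 5, 0 and 7 counts after WT, 2, 2 and 6 after BimS and 7 and 7 after RIPK3 medium. No medium changed it at the threshold, with or without the replicate block, the lowest adjusted p being 0.0966 without and 0.0917 with it, both for BimS medium in cDC1s, where all WT samples were under 3 counts. The exons of Slamf9 share 107 and 140 bases with the antisense transcripts Gm70814 and Gm70813. Slamf9 had 0 to 5 counts in cDC1 samples and 12 to 28 counts in cDC2 samples. The interval of its log2 fold change reached from -2.02 to 1.06 in cDC1s (RIPK3 against BimS medium) and from -0.19 to 1.43 in cDC2s, and a 2-fold change in at least 1 direction lay inside the interval in each comparison of media in either population.

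cDC1s and cDC2s were compared in a fit over all 17 samples with a term for the medium. Of the 9 receptors 7 differed, where 59.8% of 19082 genes were called. Slamf8 was higher in cDC1s by a log2 difference of 3.53 (SE 0.11, adjusted p = 5.28e-23), an 11.5-fold difference. Slamf7 was higher by 2.06 (SE 0.044, adjusted p = 1.19e-26), Cd84 by 1.18 (SE 0.17, adjusted p = 4.61e-07), Ly9 by 1.03 (SE 0.090, adjusted p = 7.71e-10) and Cd48 by 0.94 (SE 0.059, adjusted p = 6.35e-15). In each of these 5 genes the cDC1 and cDC2 samples of the same medium did not overlap. Slamf9 was higher in cDC2s, with a cDC1 over cDC2 log2 difference of -2.49 (SE 0.29, adjusted p = 7.58e-09). Slamf6 was slightly higher in cDC2s, at -0.28 (SE 0.11, adjusted p = 0.0245), with samples that overlapped after WT and BimS medium, and this call was lost without any of 5 samples, with adjusted p from 0.0502 to 0.0760. Limma on log2(count + 1) lost it too and gave -0.10 (adjusted p = 0.503). The 5 samples were cDC1 BimS replicate 3, cDC1 RIPK3 replicates 2 and 3 and cDC2 RIPK3 replicates 1 and 2. Cd244a was at -0.19 (interval -0.38 to 0.01, adjusted p = 0.0943), and passed without cDC2 WT replicate 1 (-0.22, adjusted p = 0.0409) or cDC2 RIPK3 replicate 1 (-0.25, adjusted p = 0.0259). Slamf1 was at -0.18 (interval -1.03 to 0.66).

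Whether a medium acted differently on the populations was tested as an interaction, the cDC1 change minus the cDC2 change. No receptor was called for BimS against WT (0.87% of all genes), RIPK3 against WT (1.14%) or RIPK3 against BimS medium (0.0314%) by edgeR with its filter on low counts, DESeq2 or limma, and 2, 3 and 2 receptors had an unadjusted p under 0.05 in edgeR. With the replicate block 0 receptors were called for BimS against WT (2.32% of all genes) and for RIPK3 against WT medium (2.35%). The nearest without the block were Ly9 for RIPK3 against WT medium, at 0.56 (interval 0.18 to 0.95, adjusted p = 0.214), Cd84 for BimS against WT, at 0.95 (interval 0.22 to 1.68, adjusted p = 0.349), and Cd84 for RIPK3 against BimS, at -1.16 (interval -1.97 to -0.35, adjusted p = 0.729). For Cd48 it was 0.32 with both media (adjusted p = 0.357 for BimS and 0.438 for RIPK3). For Slamf7 the interaction was 0.12 (interval -0.08 to 0.31) with BimS and 0.16 (interval -0.05 to 0.38) with RIPK3 medium, and for Cd244a 0.26 (interval -0.22 to 0.74) and 0.12 (interval -0.39 to 0.63).

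The adaptors that bind the tails of the receptors came next. Sh2d1b1, which encodes EAT-2, the adaptor of SLAM receptors in phagocytes and NK cells, was a cDC2 transcript. It had 85 to 204 counts in cDC2 samples, or 5.41 to 10.3 CPM, and 0 to 12 counts in cDC1 samples, with a cDC1 over cDC2 log2 difference of -4.46 (SE 0.17, adjusted p = 5.23e-20). In cDC1s its counts were 0, 5 and 3 after WT, 9, 12 and 12 after BimS and 6, 6 and 6 after RIPK3 medium. The groups did not overlap. The BimS value was 2.03 (SE 0.59, adjusted p = 0.0150), a call kept in 7 of 9 fits with a sample left out, and the RIPK3 value of 1.25 did not pass (interval -0.08 to 2.58, adjusted p = 0.226). In cDC2s it was 5.84, 7.19 and 6.33 CPM after WT, 8.09, 10.3 and 8.82 CPM after BimS and 5.41 and 7.11 CPM after RIPK3 medium. BimS medium gave 0.50 there (adjusted p = 0.0545), and 0.49 with the replicate block (adjusted p = 0.000722). RIPK3 against BimS medium gave -0.53 in cDC2s (adjusted p = 0.291), and -0.56 with the block (adjusted p = 0.00275). Sh2d1a, which encodes SAP, the adaptor of T and NK cells, had 0 to 2 counts in cDC1 and 0 to 5 in cDC2 samples, and Sh2d1b2, a paralog of EAT-2, had 0 to 2 counts in all samples. Sh2d1b1 and Sh2d1b2 are close paralogs, and how the counting shared reads between them is not known.

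Of 23 signalling partners of the family, a list of kinases, phosphatases and binding proteins, 7 changed with BimS medium in cDC1s (3 up, 4 down), 9 with RIPK3 medium (4 up, 5 down) and 3 between RIPK3 and BimS medium (all down). The shares of all genes called in these comparisons were 13.2, 16.5 and 4.15%. In cDC2s the counts were 9 (4 up, 5 down), 5 (4 up, 1 down) and 0, against 7.01, 7.21 and 0.379% of all genes. The list's median log2 fold change was between -0.04 and 0.05 in the 6 comparisons. Inpp5d, which encodes the lipid phosphatase SHIP1 that inhibitory SLAM signals recruit, rose in both populations. It was at 552 ± 9.64 CPM (SD, n = 3) in cDC1s after WT medium against 834 ± 12.5 after BimS and 897 ± 24.8 after RIPK3 medium, and at 145 ± 13.9, 268 ± 28.4 and 308 ± 43.2 CPM (n = 3, 3 and 2) in cDC2s. Sh3bp2, the adaptor 3BP2 that binds CD244, rose by 1.14 (SE 0.061, adjusted p = 7.59e-17) and 1.02 (SE 0.061, adjusted p = 1.22e-15) in cDC1s, and by 0.77 (adjusted p = 5.26e-06) and 0.82 (adjusted p = 5.93e-06) in cDC2s. Ptpn6, which encodes the phosphatase SHP-1, fell in cDC2s, from 64.1 ± 3.74 CPM to 34.0 ± 2.09 and 35.1 ± 0.543 CPM (log2 -0.92 and -0.87, adjusted p = 8.32e-07 and 7.32e-06). Its cDC1 levels were 157 ± 17.4, 178 ± 24.9 and 185 ± 24.8 CPM, and their changes of 0.18 and 0.23 had adjusted p = 0.581 and 0.422 (0.000811 and 9.73e-06 with the replicate block). Cd2, a T cell and NK cell adhesion receptor related to the family, fell in cDC2s with BimS medium by -1.85 (SE 0.42, adjusted p = 0.00745), on 15 to 24 counts after WT and 3 to 7 after BimS medium. The T cell list was at 2.63 to 3.70 CPM and 2.13 to 2.59 CPM in those groups. Within it Cd3g had 7 to 12 counts after WT and 1 to 3 after BimS medium, Cd3e 4 to 6 and 5 to 7, and Cd5 13 to 24 and 18 to 30. The sort gate would remove most T cells, and their part in the Cd2 result was not tested.

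Further named partners were smaller in change or count. Uvrag, a partner of the Vps34 complex that SLAMF1 binds on phagosomes, changed by -0.32 with BimS (adjusted p = 7.87e-07) and -0.24 with RIPK3 medium (adjusted p = 8.05e-05) in cDC1s. In cDC2s its values were -0.32 (adjusted p = 0.00734) and -0.22 (adjusted p = 0.129, and 5.41e-05 with the replicate block). Prkcq, the kinase PKC-theta, had 0 to 4 counts in cDC1 WT and 6 to 10 in cDC1 RIPK3 samples, and its log2 fold change of 1.99 (SE 0.70, adjusted p = 0.0460) rests on those counts and was kept in 5 of 9 fits with a sample left out. Between RIPK3 and BimS medium in cDC1s, Pik3r1, a regulatory subunit of PI3 kinase, was at -0.30 (adjusted p = 0.0303) and Vav1, a guanine exchange factor downstream of SLAM receptors, at -0.21 (adjusted p = 0.0199), calls kept in 6 of 9 such fits each. In cDC2s Pik3r1 was also lower, at 515 ± 79.5 CPM after RIPK3 (n = 2) against 646 ± 60.1 after BimS medium (n = 3). The fit without the block called 0 signalling partners in that comparison. Against WT medium Vav1 was also lower in cDC1s with RIPK3 (-0.16, adjusted p = 0.0463, with groups that overlapped and the call kept in 4 of 9 fits) and in cDC2s with BimS medium (-0.51, adjusted p = 0.00637, kept in 6 of 8 fits). After RIPK3 medium its cDC2 level was 46.3 ± 8.65 CPM (n = 2) against 57.5 ± 6.10 after WT (n = 3), with groups that overlapped. With the replicate block the counts of called signalling partners were 10, 14 and 3 in cDC1s, against 17.9, 21.0 and 8.87% of all genes, and 16, 11 and 5 in cDC2s, against 21.3, 21.4 and 14.3%, in the order used above.

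The list of 11 phagocyte partners holds the Mac-1 integrin chains, their ITAM adaptors and kinases, and subunits of the NADPH oxidase. In cDC1s 4 of them changed with BimS medium (1 up, 3 down), 4 with RIPK3 medium (1 up, 3 down) and 1 between the media, against 13.2, 16.5 and 4.15% of all genes. In cDC2s 3 (1 up, 2 down), 3 (2 up, 1 down) and 0 changed, against 7.01, 7.21 and 0.379%. With the replicate block the counts were 5, 5 and 2 in cDC1s (17.9, 21.0 and 8.87% of all genes) and 10, 8 and 6 in cDC2s (21.3, 21.4 and 14.3%). Itgb2, the beta chain of Mac-1 and LFA-1, rose by 0.52 (SE 0.050, adjusted p = 3.04e-10) and 0.54 (SE 0.050, adjusted p = 8.85e-11) in cDC1s and by 0.84 (adjusted p = 0.000111) and 0.91 (adjusted p = 0.000101) in cDC2s. Ncf1, which encodes p47phox, fell by 0.30 with each medium in cDC1s (adjusted p = 0.0101 and 0.00792) and by 0.66 and 0.68 in cDC2s (adjusted p = 5.05e-06 and 1.29e-05). Further list members are given by level only. Itgam, the alpha chain of Mac-1, was at 0.358 to 1.44 CPM in cDC1 and 40.8 to 62.6 CPM in cDC2 samples. Cybb, another oxidase subunit, was at 1.83 to 3.88 CPM in cDC1 and 40.8 to 67.2 CPM in cDC2 samples. Ncf4, which encodes the oxidase subunit p40phox, rose in cDC2s with RIPK3 medium, from 35.5 ± 3.29 (n = 3) to 47.4 ± 5.14 CPM (n = 2; log2 0.42, adjusted p = 0.0349), a call kept in 4 of 8 fits with a sample left out. Rac2, the GTPase of the oxidase, fell in cDC2s with BimS medium, from 53.0 ± 7.47 to 39.0 ± 4.25 CPM (log2 -0.44, adjusted p = 0.0144, kept in 6 of 8 fits). Tyrobp, the ITAM adaptor DAP12, fell in cDC1s with BimS medium by 0.19 (adjusted p = 0.0241, kept in 5 of 9 fits). Syk, the kinase of ITAM receptors, fell in cDC1s with RIPK3 medium, from 90.2 ± 0.234 to 67.9 ± 5.76 CPM (log2 -0.41, adjusted p = 1.14e-06), and against BimS medium by 0.37 (adjusted p = 8.20e-05).

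**Figure D4:**
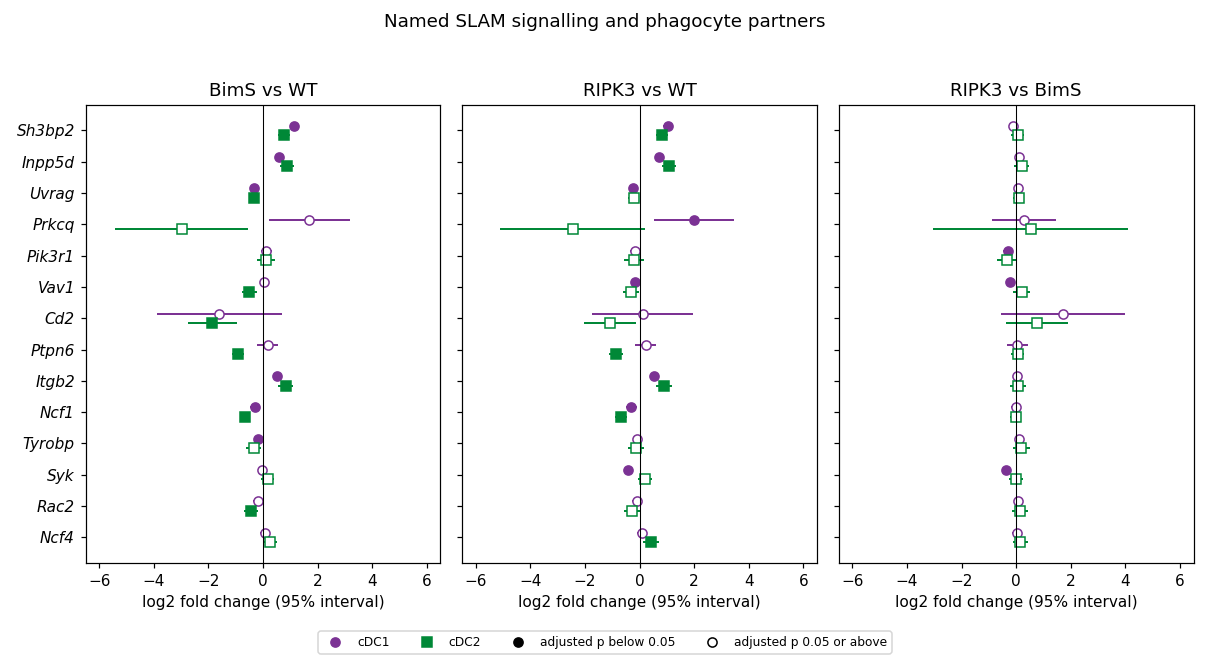
Log2 fold change (x axis, point and 95% interval) between media of the signalling and phagocyte partners named in the text, cDC1s as circles and cDC2s as squares, filled where the adjusted p was below 0.05. Sh3bp2, Inpp5d and Itgb2 lie above 0 and Ncf1 below 0 against WT medium in both populations, while Ptpn6 is lower in cDC2s; the wide intervals of Prkcq and Cd2 come with few counts.

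For each receptor called between media, the non-member genes with the most similar pattern were named by the distance between their 6 group means, on the log2 CPM scale with the mean of each population removed, over 7276 genes. This is a description of 6 means from 17 samples, with no p. Traf3ip3 was nearest to Slamf7 at a root mean square distance of 0.033, followed by Sema4a and D17H6S56E-5. The median distance of all genes from Slamf7 was 0.33. Ncf1, the oxidase subunit described above, was nearest to Cd48 at 0.026, ahead of Gm6548 and Ccdc34. Sh3bp2, the CD244 adaptor, was nearest to Cd244a at 0.037, ahead of Gm17586 and Fbxo30. Sash3, Dna2 and Timeless were nearest to Slamf8, at 0.041, 0.052 and 0.057. Tent5c, Wdr81 and Ms4a6d were nearest to Slamf6, at 0.046, 0.064 and 0.065.

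**Figure D5:**
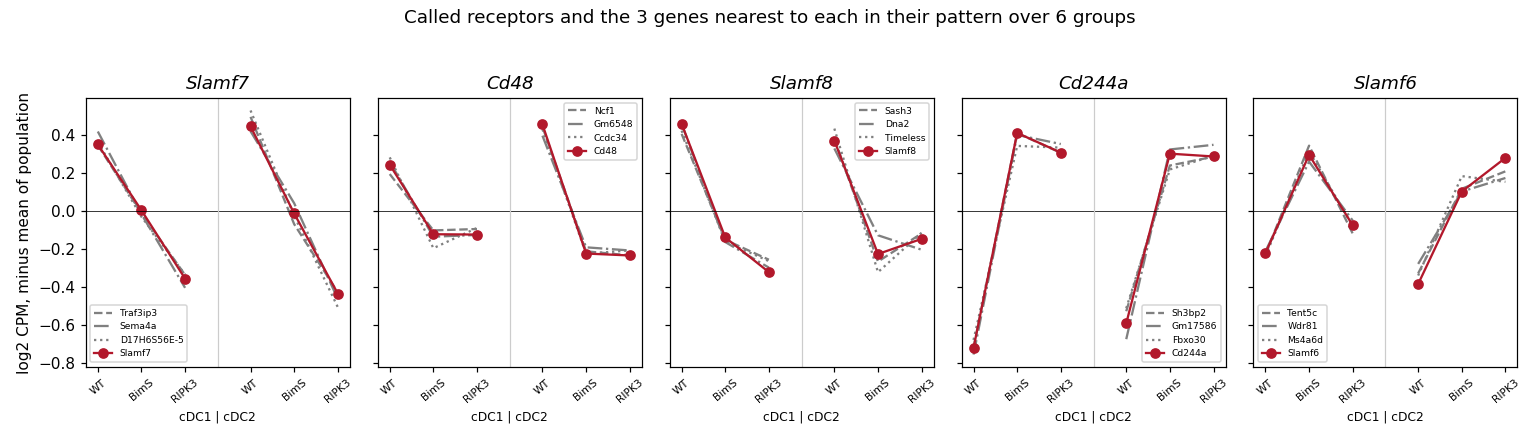
Mean log2 CPM of each group minus the mean of its population (y axis) for the 5 receptors called between media (red points) and the 3 nearest non-member genes of each (grey lines), cDC1 groups left and cDC2 groups right in each panel. Slamf7 descends from WT to RIPK3 medium, Cd48 drops once and stays level, and Cd244a rises once in both populations.

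The neighbours of the receptors in the locus were counted as well. The span from Cd244a to Slamf8 holds 56 other annotated genes, 34 of them in the count table and 18 of the 56 protein coding. Of 25 tested in cDC1s, 4 were called with BimS medium (1 up, 3 down), 2 with RIPK3 medium (both down) and 1 between the media, against 13.2, 16.5 and 4.15% of all genes. Of 21 tested in cDC2s the counts were 2 (both down), 0 and 0 by edgeR, with 7, 1 and 1 at an unadjusted p under 0.05, against 7.01, 7.21 and 0.379% of all genes called. With the replicate block they were 6, 3 and 5, against 21.3, 21.4 and 14.3%.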

How the data were processed

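RNA of sorted cDC1s and cDC2s was sequenced as poly-A libraries, and the authors aligned reads with STAR 2.7.10a to GRCm39 and deposited raw counts per Ensembl gene. The deposited normalized table was not used. Lines without an identifier (148 of 31239, 0.0258 to 0.0366% of counts) were left out. Symbols and exon lengths came from GENCODE M39, which matched 30854 of 31091 identifiers. Genes that were nonzero in 50% or more of a fit's samples were tested with edgeR 4.0.16 (TMM, robust quasi-likelihood, Benjamini-Hochberg adjustment, R 4.3.3), with cDC1 samples, cDC2 samples or all 17 in a fit. Alternatives were DESeq2 1.42.0, limma 3.58.1 (on log2(count + 1), the transformation named in the study's methods, and on log2 CPM), other filters and size factors, a replicate block and each sample left out. Deviations of samples with the same replicate number correlated over 0.1 within a population in 16 of 16 pairs (4 of 32 with different numbers), so the numbers paired samples there. Named were the 9 members, 3 adaptors, and per partner list and comparison up to 3 called genes with the largest change whose groups did not overlap, and, for likeness, 3 genes with average log2 CPM of at least 3. An item of a partner list is not reported here. Members, lists and rules were chosen with earlier results of these data known. The labels number the replicates, but the sources used here do not say whether these came from separate spleen pools, so p-values measure only the spread between these samples, which may be technical.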

Additional observations from a re-analysis of the deposited data

Results flagged for a closer look

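No SLAM receptor passed the test of a difference in response between the populations, but 4 of their partners did, by the interaction term of edgeR's fit over all 17 samples (cDC1 change minus cDC2 change). Of 23 signalling partners 3 were called for BimS and 1 for RIPK3 against WT medium, and of 11 phagocyte partners 0 and 1, where 0.87 and 1.14% of all genes were called. For Ptpn6, the phosphatase SHP-1, the difference was 1.10 on the log2 scale for BimS against WT medium (SE 0.14, adjusted p = 0.000135) and 1.08 for RIPK3 against WT medium (SE 0.16, adjusted p = 0.000311), with a fall in cDC2s. For Vav1 it was 0.56 with BimS medium (SE 0.13, adjusted p = 0.0291), from 57.5 ± 6.10 to 40.5 ± 4.16 CPM in cDC2s and 235 ± 14.2 to 244 ± 14.2 CPM in cDC1s. For Pik3cd, the delta subunit of PI3 kinase, it was -0.40 with BimS medium (SE 0.097, adjusted p = 0.0381), from 188 ± 5.70 to 237 ± 0.845 CPM in cDC2s and 263 ± 13.5 to 250 ± 11.9 CPM in cDC1s (n = 3 in each group). For Syk it was -0.61 with RIPK3 medium (SE 0.12, adjusted p = 0.00454), with a fall in cDC1s and levels of 179 ± 15.4 (n = 3) and 203 ± 27.0 CPM (n = 2) in cDC2s. With each sample left out in turn, the Ptpn6 calls were kept in 17 of 17 fits, that of Syk in 16 and those of Vav1 and Pik3cd in 9 each.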

How the results depend on the processing

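Of 1688 values of the receptors under alternatives, 1654 stayed on the same side of the threshold, 16 lost a call, 18 gained one and 0 reversed a called direction, while values near 0 that were not called could change sign. The counts of receptors called moved by over 1.5 times in 5 comparisons. Between RIPK3 and BimS medium in cDC1s the count was 2 without a filter and 2 with the replicate block (main 1, 1 to 2 when single samples were left out). For BimS against WT medium in cDC2s it was 5 with the block (main 3, 3 to 3 with samples left out). For RIPK3 against WT medium in cDC2s it was 2 to 5 with samples left out (main 4), and where 1 cDC2 RIPK3 sample remained it was assumed to vary like the other groups. Between RIPK3 and BimS medium in cDC2s it was 1 without a filter and 1 with the block, the latter Slamf7 (main 0, 0 to 1 with samples left out). In the interaction for RIPK3 against WT medium it was 1 without a filter (Ly9, 0.58, adjusted p = 0.0191). The cause was not tested. The block raised the share of all genes called between RIPK3 and BimS medium in cDC2s from 0.379 to 14.3%. Across populations 19 of 24 same-numbered pairs correlated over 0.1, against 5 of 48 with different numbers, so same-numbered samples tended to vary together there too. The main fits over both populations did not use the numbers. The replicate block left 7 receptors called between cDC1s and cDC2s and 0 in each interaction. For BimS and RIPK3 against WT medium it raised the signalling partners called in the interaction from 3 and 1 to 5 and 3, and the phagocyte partners from 0 and 1 to 2 and 3, with 2.32 and 2.35% of all genes called; Vav1 had an adjusted p of 0.0499. Single samples left out gave 4 to 5 (BimS) and 4 to 4 (RIPK3) against WT in cDC1s and 6 to 8 between populations. Slamf1 had 0 to 10 counts per sample, and Slamf9 had 0 to 5 in cDC1s and 12 to 28 in cDC2s. The part of sequencing depth in these low counts was not tested.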
